A study of Mus musculus with 32 samples.

Results

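Of 99037 accessible regions counted in mouse haematopoietic stem and progenitor cells, 2822 autosomal regions had a higher level in fetal liver than in perinatal and 1w marrow. Their mean level in the adult stayed under 1.33 times that in perinatal and 1w marrow. They are called closed here for that drop alone, since many kept a peak in marrow and most had none called in liver (shares are given below). They were chosen by their levels in CPM, counts scaled to the size of the library (the total of its column). The mean of the E12.5 FL and E16.5 FL libraries, called F, had to be 5 CPM or more and at least 2 times N, the mean of the Perinatal BM and 1w BM libraries. The mean of the 6w BM and 8w BM libraries, called A, had to be under 1.33 times N. In all, 96960 regions were autosomal and 53841 of them had F of 5 CPM or more, so the closed regions were 5.24% of the regions that could have qualified on F.

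The assay was ATAC-seq: a Tn5 transposase cuts DNA that nucleosomes leave free and tags it for sequencing. Open regions of this kind mark promoters, enhancers and other sites where transcription factors bind, and a region that loses signal has become less accessible to the enzyme or is open in fewer of the cells. Blood stem and progenitor cells expand in the fetal liver and then move to the bone marrow around birth, where they later become mostly quiescent. Fetal and adult stem cells are known to use partly different programs, with the RNA-binding proteins Lin28b and Igf2bp1 on the fetal side.

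All cells were LSK cells (the gate for lineage-negative cells with Sca-1 and Kit) of C57BL/6 mice. Marrow (BM) groups were Perinatal BM, 1w BM, 4w BM, 6w BM and 8w BM with 3 libraries each and 3w BM with 2. The fetal groups, also of 3 libraries each, were E16.5 FL, E12.5 FL and E12.5 PL; FL is fetal liver, and the labels do not spell out PL. A further 3 SHI libraries came from E12.5 FL cells kept for 2 hours in basic medium, and 3 co-SHI libraries from such cells in medium conditioned by E16.5 hepatocytes. Whether the libraries stem from different mice is not stated in the labels. The p-values therefore cover the spread between these libraries and nothing more. One library titled 8w BM 3 carries a stage label of E12.5; it was kept by its title, and 2923 regions met the rule without it, 98.3% of the 2822 among them.

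Total counts ran from 2845113 to 10167340 in the developmental libraries, and a median member at F of 6.73 CPM therefore rests on few reads in a library. The summed level over the regions of Kit, Ly6a, Ptprc and Cd34 was 303 to 429 CPM over all 26 libraries, although the single region of Ly6a, which encodes Sca-1, had group means of only 1.36 to 4.38 CPM. E12.5 PL stood apart in several marker sums. Its stromal markers (Col1a1, Pdgfra and Cxcl12) summed to 151 to 213 CPM against 104 to 129 CPM in E12.5 FL. The regions of Ptprc, which encodes the blood cell antigen CD45, summed to 40.4 ± 4.4 against 125 ± 12 CPM (SD, n = 3 each). Those of Cd34 were also lower in E12.5 PL, at 118 ± 15 against 169 ± 32 CPM. Kit went the other way, with 145 ± 13 against 88.7 ± 17 CPM, and so did Ly6a, with 4.38 ± 0.65 against 2.07 ± 1.4 CPM. The summed endothelial markers (Cdh5, Kdr and Pecam1) of E12.5 PL reached 289 to 540 CPM against 260 to 299 CPM, which overlap. Its trophoblast markers (Krt8, Krt18 and Gcm1) summed to 142 to 217 CPM against 84.6 to 102 CPM. That gap lay mainly in Krt8 and Krt18, with means of 61.7 and 75.2 CPM against 30.6 and 35.1 CPM. For Gcm1, E12.5 PL had 32.9 ± 7 CPM against 27.5 ± 1.4 CPM. E16.5 FL, at 34.7 ± 6.9 CPM, was near it, and the marrow groups had Gcm1 means of 32.7 to 45.6 CPM. The macrophage markers (Adgre1, Csf1r and Cd68) of E12.5 PL summed to 52.5 to 82.9 CPM against 126 to 134 CPM. Some sums also moved with the contrast that chose the members. Endothelial markers summed to 260 to 301 CPM in the 6 liver libraries and 236 to 259 CPM in the 6 perinatal and 1w libraries. Stromal markers summed to 104 to 129 and 79.1 to 94.2 CPM, with no overlap in either. These sums lack the TMM scaling explained below, whose factors were 1.107 to 1.219 in liver and 0.939 to 1.027 in these marrow libraries. Kdr did not fall, with means of 64.2 and 62.9 CPM in E12.5 and E16.5 FL and 65.4 and 68 CPM in Perinatal and 1w BM. Cdh5 and Pecam1 had lower means in marrow. Of the marker genes, Cdh5, Pecam1 and Col1a1 each have 1 region that is itself a member. The part of such cells in the members' levels was not tested. Fewer accessible cells and lower accessibility per cell cannot be told apart in these bulk libraries.

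Most closed regions lay away from gene starts, but 238 of the 2749 with an annotated start on their chromosome in the RefSeq promoter table lay within 1 kb of one (8.66%). That share was 24.4% over regions with F of 5 CPM or more, which were brighter; within F of 5 to 10 CPM it was 7.97% of members and 8.46% of regions. For 216 promoter windows of 201 genes, at least 150 of the bases from 250 before to 50 after the start fell inside a closed region. The 250 bases before the start are shown for 4 genes named in the results. Mcts2 and Zim1 are imprinted genes whose regions are among the 8 with the smallest p for a higher level in E12.5 PL than in 3w and 4w marrow, Brinp1 has one of the highest F to N ratios, and E2f2 belongs to the cell cycle list. Sequences are from RefSeq (GRCm38.p6), 5′ to 3′ on the gene's strand, and capitals mark matches, on either strand, to AGATAA for the factors of the GATA family, TGTGGT for RUNX factors, TGANTCA for AP-1 or GGAAGT for ETS factors.
Mcts2, chr2:152686898-152687147, plus strand: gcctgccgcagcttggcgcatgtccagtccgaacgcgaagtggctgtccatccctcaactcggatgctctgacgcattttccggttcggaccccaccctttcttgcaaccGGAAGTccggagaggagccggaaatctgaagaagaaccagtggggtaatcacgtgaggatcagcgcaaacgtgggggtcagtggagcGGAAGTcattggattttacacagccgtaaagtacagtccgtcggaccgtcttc
Zim1, chr7:6696433-6696682, minus strand: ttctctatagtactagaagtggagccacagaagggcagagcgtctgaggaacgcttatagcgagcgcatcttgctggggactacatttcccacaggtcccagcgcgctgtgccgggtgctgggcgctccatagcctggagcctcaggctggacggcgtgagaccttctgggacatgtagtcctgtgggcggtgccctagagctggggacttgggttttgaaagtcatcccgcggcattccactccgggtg
Brinp1, chr4:68954398-68954647, minus strand: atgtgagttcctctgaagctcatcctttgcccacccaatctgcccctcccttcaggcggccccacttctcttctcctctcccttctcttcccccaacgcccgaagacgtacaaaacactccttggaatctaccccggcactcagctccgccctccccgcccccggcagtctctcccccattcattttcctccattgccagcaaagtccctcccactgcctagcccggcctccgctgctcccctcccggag
E2f2, chr4:136172024-136172273, plus strand: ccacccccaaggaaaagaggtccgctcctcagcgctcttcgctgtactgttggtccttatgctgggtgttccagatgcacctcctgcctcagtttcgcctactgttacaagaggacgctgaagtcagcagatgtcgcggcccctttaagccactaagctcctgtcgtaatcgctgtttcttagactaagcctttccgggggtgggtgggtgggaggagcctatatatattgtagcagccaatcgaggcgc

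Among these 4 stretches, Mcts2 held 2 ETS motifs and the other 3 genes held none of the GATA, RUNX, AP-1 or ETS letters. Over the 216 windows, the ETS letters were in 24.1%, against 27.9% of 13772 windows inside regions with F of 5 CPM or more and 23.9% of 31396 autosomal windows. GATA letters were in 7.87% (5.53% and 11.2% in those sets), RUNX letters in 11.6% (1721 of the 13772 windows and 16.7%) and AP-1 letters in 4.63% (4.68% and 7.84%). Further searches gave 69.9% with an E box, CANNTG (62.3% and 72.2%), and 67.6% with CACCC for Kruppel-like factors (64.6% and 57.7%). TTGTGCAA for CEBP factors was in 0.463% (0.632% and 1.02%) and TTTATGG for Hox and Cdx factors in 2.78% (1.47% and 2.77%). Motifs can overlap each other, and a match is only a description of the letters. The windows held fewer CG pairs than promoters in regions with F of 5 CPM or more, a set not matched on level: 59.3% held 10 or more CG pairs, against 84.6% of windows inside regions with F of 5 CPM or more and 44.0% of all autosomal windows, with median GC contents of 57.5%, 62.0% and 53.0%.

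By the choice of members, levels fell from liver to marrow. The median member stood at 6.99 CPM in E12.5 FL, 6.79 in E16.5 FL, 3.32 in Perinatal BM and 2.54 in 1w BM, and was then 2.58 in 6w BM and 2.83 in 8w BM. In groups that played no part in the choice, the medians were 3.64 CPM in E12.5 PL, 2.85 in 3w BM and 2.99 in 4w BM. The ratio F/N had a median of 2.34 and a highest value of 7.58, against a median of 1.06 over regions with F of 5 CPM or more. The 3 members just inside the threshold lay near Cbx7 (F of 9.79 and N of 4.89 CPM), near Myo7a (8.59 and 4.29 CPM) and, with no gene within 50 kb, on chromosome 6 (5.2 and 2.6 CPM). Just outside it were regions near Ttc28 (7.28 and 3.64 CPM), Gal3st1 (5.72 and 2.86 CPM) and Crhbp (5.93 and 2.97 CPM).

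**Figure D1:**
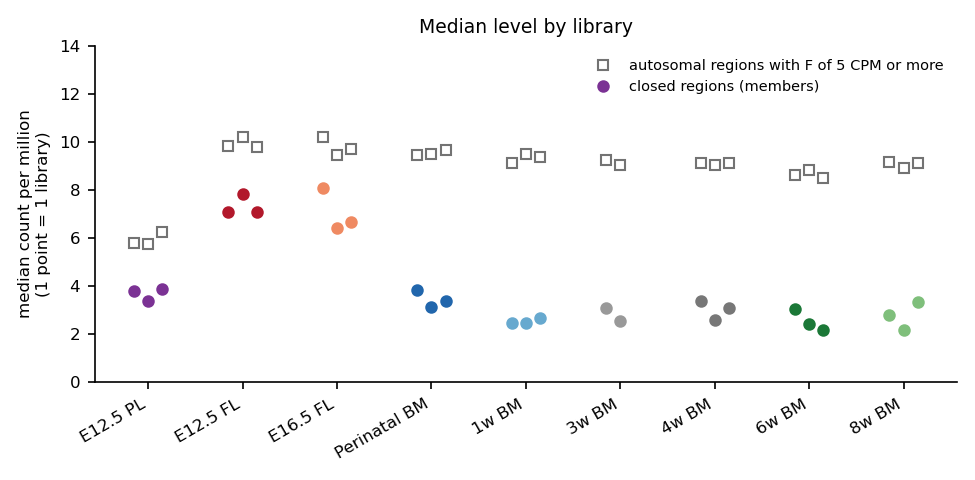
Median level in CPM (vertical axis) of the 2822 closed regions (filled points) and of the 53841 autosomal regions with F of 5 CPM or more (open squares), 1 point per library, by group (horizontal axis). Member medians run from 6.391 to 8.08 CPM in the 6 fetal liver libraries and from 2.147 to 3.87 CPM in all others, while the squares drop only in E12.5 PL, to between 5.724 and 6.234 CPM.

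The scaling of the libraries bears directly on how many regions count as closed. TMM factors, which scale libraries to a common middle of the regions, were higher in fetal liver than in marrow, and with TMM-scaled CPM 1176 regions met the rule, all of them among the 2822. That scaling moved the median F/N over regions with F of 5 CPM or more from 1.06 to 0.92. In members the ratio was then 1.73 to 6.49 with a median of 2.05, a height that the rule largely sets.

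In 1184 closed regions (42.0%) every one of the 6 liver libraries was above every one of the 6 perinatal and 1w libraries. That held for 4.16% of all autosomal regions and 4.44% of those with F of 5 CPM or more, but the rule used this contrast, so nothing is read from the excess. Most members were faint. Of the 2822, 2189 (77.6%) had F of 5 to 10 CPM and 34.9% of these did not overlap, while 137 had F of 50 CPM or more and 95.6% of these did not overlap. The authors' MACS peak lists, made per library, describe the same libraries: 38.8% of members held a peak in any of the 6 liver lists, 28.6% in any of the 6 perinatal and 1w lists, and 8.86% in none of 32 lists. Over regions with F of 5 CPM or more these shares were 52.6%, 83.1% and 1.96%.

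The peak lists were made from the libraries whose counts chose the members, so they describe the members and are no separate support. In a small set, 38 members held a peak in 3 or more liver lists and in none of the perinatal and 1w lists, and 3 of them in all 6 liver lists. Over all autosomal regions there were 44 regions with that peak pattern. Of the 38, 13 lay in gene bodies, 3 at gene ends, 7 farther out within 50 kb of a named gene and 15 beyond that. The intergenic region 12083 bp from Pigk (chr3:152701500-152702002), a gene for a subunit of the enzyme that attaches GPI anchors, was one of the 3. Its level was 13.8 to 28.7 CPM in the 6 liver libraries with a median of 21.0, and 2.56 to 7.67 CPM with a median of 3.63 in the perinatal and 1w libraries. All 6 liver libraries were thus above all 6 early marrow libraries, and the 5 libraries of 3w and 4w marrow, at 1.61 to 8.68 CPM, were as low. E12.5 PL gave 7.34, 4.54 and 14.4 CPM, between liver and marrow with some overlap with both.

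Closed regions were more often far from any named gene. No named gene lay within 50 kb of 22.4% of members, against 9.60% of regions with F of 5 CPM or more and 12588 of all 96960 autosomal regions. The regions with F of 5 CPM or more were brighter, with a median F of 9.65 CPM; within F of 5 to 10 CPM the share was 18.7% of 2189 members against 12.2% of 27974 regions. Gene ends (within 1 kb of either end of a named gene's span) held 12.9% of members against 29.1% of regions with F of 5 CPM or more, but within F of 5 to 10 CPM they held 12.4% and 12.6%, so the gap was not seen at like level among the faint regions that most members are. From 10 to 50 CPM gene ends held 17.3% of members and 44.7% of regions. Gene bodies held 38.1% of members and intergenic stretches 26.6%, against 38.4% and 22.9% of regions with F of 5 CPM or more. The median width was 539 bp, against 595 bp in those regions and 550 bp in all autosomal regions. Exactly 501 bp, the smallest width, was found in 33.8% of members, 6.86% of regions with F of 5 CPM or more and 31.3% of all autosomal regions; within F of 5 to 10 CPM it was 40.7% of members and 11.5% of regions. Members had 1813 nearest genes, of which 1553 had 1 member.

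Several genes with many members carry the names of gene families, such as Zfp and Vmn. Reads from similar copies of a gene can map to several sites, and how the authors placed such reads is not given in the sources used here. The values of such genes are therefore uncertain. How similar the copies are, and whether they share reads, was not measured. Zfp978 had 17 members, Sfi1 15, Zfp993 9, Tmem267 8, and Duxf3, Sp110 and Zfp992 7 each. Of 854 regions with F of 5 CPM or more nearest a Zfp gene, 84 (9.84%) were closed, and of 53 nearest a Vmn (vomeronasal receptor) gene, 29 (54.7%). Of 100 nearest an Olfr (olfactory receptor) gene, 6 (6.0%) were closed. These families were picked after their values were seen. Over all regions with a named gene the share was 4.50%.

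The 137 members at F of 50 CPM or more took a large part of the counts: 2.56% to 3.70% of all counts in the liver libraries and 0.870% to 1.87% in the perinatal and 1w libraries. The brightest was chr17:39843501-39844460, with 1979 to 2842 CPM in liver, 761 to 1338 CPM in perinatal and 1w marrow, and 3694, 1981 and 4221 CPM in E12.5 PL. A neighbour at chr17:39848013-39848660, with F of 1721 CPM, overlaps a RefSeq pseudogene of ribosomal RNA, Rn18s-rs5. Next was chr9:35305123-35305628, 29166 bp from Rpusd4, with 1303 to 2302 CPM in liver and 488 to 1287 CPM in perinatal and 1w marrow. No library of either set crossed between liver and early marrow at these sites. Of the 137, 57 had no named gene within 50 kb and 4 lay within 1 kb of an annotated start. A peak in all 32 lists was held by 86, and 91.2% held one in a perinatal or 1w list, so most dropped in level while keeping a called peak. In the first few Mb of a chromosome lay 44 of the 137 (32.1%), against 1.11% of regions with F of 5 CPM or more. How reads that map to several sites were placed is not given. Whether these high counts reflect accessibility alone was not tested.

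The highest ratios belonged to fainter regions. By (F + 0.5)/(N + 0.5), the 20 highest, 1 per gene, included regions at Pnpla5, Arfgap2, Tfap2b, Hoxa3, Erap1, Zfp184, Tafa2, Igf2bp1, Lpar5, Brinp1 and Ybx3. The ratio of Pnpla5, a lipase gene, is the highest of all members at 7.58, but it owes much to 1 library: E16.5 FL 1 had 18.6 CPM while the median of the 6 liver libraries was 4.72 CPM. Its perinatal and 1w libraries had 0.351 to 1.77 CPM and did not reach the lowest liver library at 3.02 CPM. The region in Ybx3, which encodes a cold-shock domain protein, was alike, with 28.4 CPM in its highest liver library and a median of 4.88 CPM. By contrast Lpar5, a receptor for lysophosphatidic acid, had an even spread: its region inside the gene (chr6:125081690-125082317) had 11.0 to 20.1 CPM in liver with a median of 12.6, and 1.23 to 4.02 CPM in perinatal and 1w marrow. The 5 libraries of 3w and 4w marrow had 0.644 to 3.31 CPM, and E12.5 PL had 27.1, 18.4 and 18.3 CPM. Brinp1, a gene known from neurons, had 4.99 to 17.5 CPM at its start in liver and 0 to 2.66 CPM in perinatal and 1w marrow. The region 2478 bp from Tfap2b, a neural crest transcription factor, had 3.59 to 7.61 CPM against 0.261 to 2.46 CPM, and 1.33, 1.18 and 0 CPM in E12.5 PL.

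**Figure D2:**
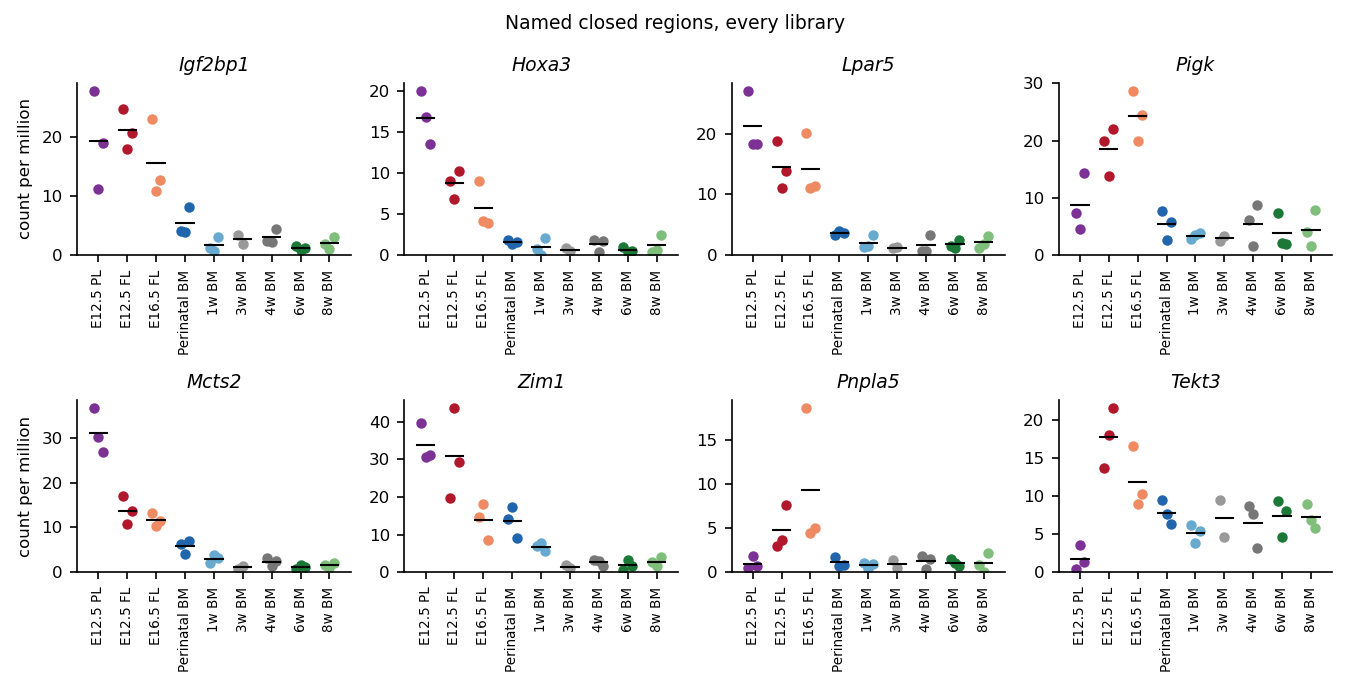
Level in CPM (vertical axes, each starting at 0) of 8 named closed regions in every developmental library, by group (horizontal axes); points are libraries and bars are group means. Igf2bp1 (the region at 96006913), Hoxa3, Lpar5, Mcts2 and Zim1 have a mean in E12.5 PL above F, Pigk lies between, and Tekt3 is at 0.445 to 3.55 CPM in E12.5 PL, below the liver libraries.

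In the fetal-type list, 6 of 20 genes had a closed region, against 11.1% of all 16350 genes with a region. These were 9 regions, 8.91% of the list's 101 with F of 5 CPM or more, against 4.50% over all regions with a named gene. List shares were not matched on level, and 7.83% of all autosomal regions with F of 5 to 10 CPM were closed. The lists were chosen with earlier results known and get no test. Igf2bp1 led it with 3 regions. The region at chr11:96006913-96007596, 969 bp outside the gene's span, had 10.8 to 24.7 CPM in liver with a median of 19.3, 0.703 to 8.09 CPM in perinatal and 1w marrow with a median of 3.39, and 0.802 to 3.11 CPM in 6w and 8w marrow. E12.5 PL had 27.8, 11.2 and 18.9 CPM, within the range of liver. The region at chr11:96005634-96006235, which overlaps the end of the span, had 9.17 to 19.3 CPM in liver, 1.05 to 7.57 CPM in perinatal and 1w marrow, and 11.8, 12.8 and 14 CPM in E12.5 PL. In both, liver and early marrow did not overlap. The other genes of the list were Trim71, a target of let-7 microRNAs, Plagl1 and H19, both imprinted, Hmga2, a chromatin protein, and Sox17, a fetal stem cell and endothelial factor. A Trim71 region had F of 5.74 and N of 1.94 CPM, and that near Plagl1 5.5 and 1.76 CPM. In the adult-type list only Dnmt3a and Nfkbia had a member, 2 of 140 regions (1.43%).

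Hox genes set body position and are used by blood progenitors, and the list built on them held 7 members of 75 regions (9.33%). The region inside Hoxa3 (chr6:52172422-52172942) had 3.88 to 10.3 CPM in liver and 0 to 2.07 CPM in perinatal and 1w marrow, and its 3w and 4w libraries had 0.322 to 1.87 CPM. E12.5 PL was higher than every liver library there, at 20, 16.8 and 13.5 CPM. The regions 35848 and 9340 bp from Hoxb9 went the other way, with means of 2.02 and 4.68 CPM in E12.5 PL against F of 7.29 and 7.35 CPM.

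The erythroid list had 6 members of 57 regions (10.5%) at Ank1, Epb41, Nfe2 and Rhd. Ank1, the red cell ankyrin, had the brightest: 31.3 to 55.4 CPM in liver, 8.43 to 30.7 CPM in perinatal and 1w marrow and 19.3, 10.3 and 23.4 CPM in E12.5 PL. Its highest early marrow library stopped just short of the lowest liver library. Nfe2, a factor of erythroid and megakaryocyte cells, had 7.84 to 14.7 CPM in liver and 2.46 to 8.26 CPM in perinatal and 1w marrow, an overlap of the groups. Of the erythroid markers, the liver level of the Gata1 regions was 13.3 ± 2 CPM at E16.5, and 9.32 ± 1.3 CPM at E12.5. Perinatal marrow, at 10.9 ± 0.67 CPM, lay between these, and 1w marrow was at 7.56 ± 2.2 CPM (SD, n = 3 each). The Klf1 region was at 26.8 ± 4.8, 24.4 ± 2.3, 26.7 ± 6 and 27.1 ± 5 CPM, with the groups in that same order. The part of erythroid cells in these values was not tested.

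The endothelial list had 8 members of 97 regions (8.25%), at Cdh5, Erg, Sox17, Sox18, Plvap, Flt4, Tek and Pecam1, and 5 of the 8 were higher in E12.5 PL than in 3w and 4w marrow by the test given further on, which called 31.6% of members and 30.1% of all regions higher. At the start of Cdh5 (chr8:104101358-104101858), which encodes VE-cadherin, liver had 2.99 to 8.61 CPM, perinatal and 1w marrow 0.702 to 2.66 CPM and E12.5 PL 15.8, 15 and 16.8 CPM. The liver and early marrow libraries did not overlap, and E12.5 PL was above both. Near Sox18 the liver libraries, at 1.31 to 12 CPM, overlapped those of perinatal and 1w marrow, at 1.10 to 2.87 CPM. Without TMM scaling, the summed endothelial markers, given above, were higher in liver than in perinatal and 1w marrow, though Kdr alone was not. The sums were partly higher still in E12.5 PL, and their part in these values was not tested.

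Stem cell transcription factors held 10 members of 233 regions (4.29%, near the share over all genes). Runx1, which is needed for blood stem cells to arise, had 3, and the one 688 bp outside its span (chr16:92599994-92600778) had 7.76 to 14.1 CPM in liver, 2.36 to 4.70 CPM in perinatal and 1w marrow and 2.67, 1.38 and 2.79 CPM in E12.5 PL. Etv6 also had 3, and Mecom, a regulator of stem cell maintenance, had 1 at F of 5.2 and N of 1.65 CPM. Chromatin regulators held 5 of 103 (4.85%), among them regions at Cbx2 and Cbx7, which encode Polycomb subunits. Cell cycle genes held 4 of 120, and at the start of E2f2, a factor for entry into the cell cycle, liver had 3.92 to 11.4 CPM and perinatal and 1w marrow 1.64 to 5.02 CPM, which overlap. Other lists held few: homing and adhesion receptors 6 of 149, TGF-beta and BMP genes 5 of 170, Wnt and Notch genes 5 of 205, insulin-like growth factor genes 4 of 124, trophoblast genes 3 of 41, macrophage and dendritic genes 3 of 68 and stromal genes 2 of 52 (the stromal marker sums, given above, were higher in liver too). Immediate early genes, megakaryocyte genes, interferon response genes, surface antigens and neutrophil genes held 1 each. Lymphoid and B cell genes (106 regions), T and NK cell genes (61), hepatocyte genes (31) and mast cell genes (28) held none.

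**Figure D3:**
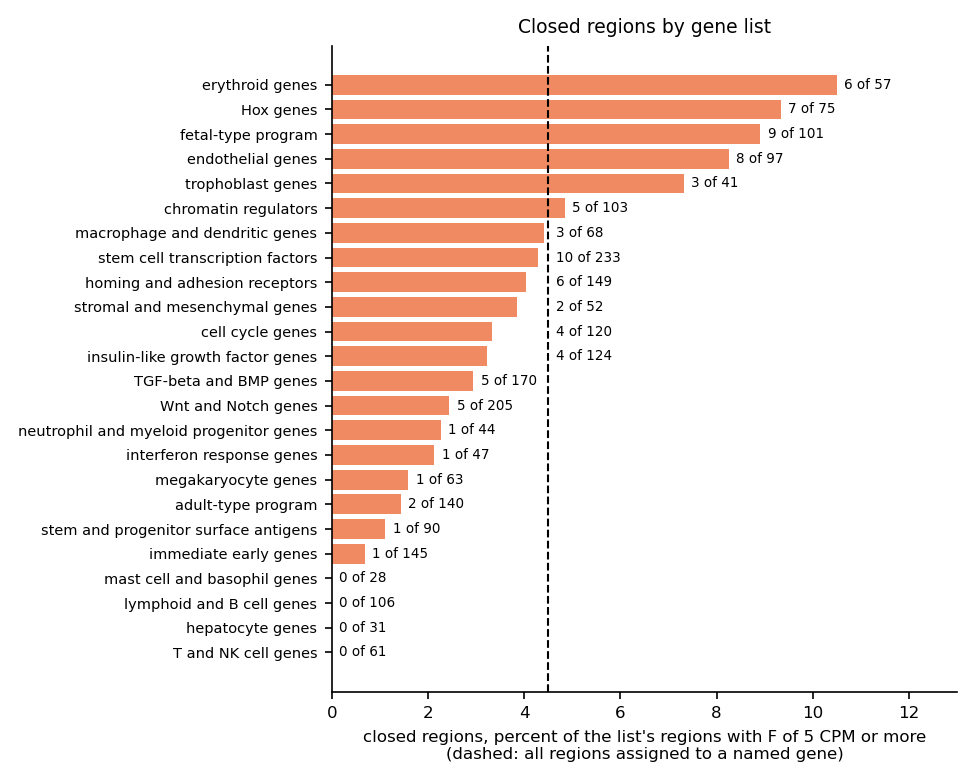
Share of each list's regions with F of 5 CPM or more that were closed (bars, percent, horizontal axis), with the counts beside the bars; the dashed line is the 4.50% over all regions with a named gene. The erythroid, Hox, fetal-type, endothelial and trophoblast lists lie past the line by more than 2 percentage points, on 3 to 9 regions each. The lists are not matched on level. Over all autosomal regions the share was 7.83% at F of 5 to 10 CPM, 2.51% at 10 to 20, 1.39% at 20 to 50 and 7.78% from 50 CPM.

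E12.5 PL, which the rule did not use, split the members. In 481 (17.0%) its mean was at or above F, in 1142 (40.5%) at or below N, and in 1199 (42.5%) between. Of regions with F of 5 CPM or more, 30.6% were at or above F and 64.3% at or below N; members are by choice regions with a wide gap between F and N, which leaves more room between. The ratio of E12.5 PL to F had a median of 0.454 in members and 0.631 in those regions. Members at or above F were more often within 1 kb of an annotated start, 16.9% against 4.75% of members at or below N. These sets were not matched on level, and the split was not made over regions with F of 5 CPM or more. Whether the difference is particular to members was therefore not tested.

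**Figure D4:**
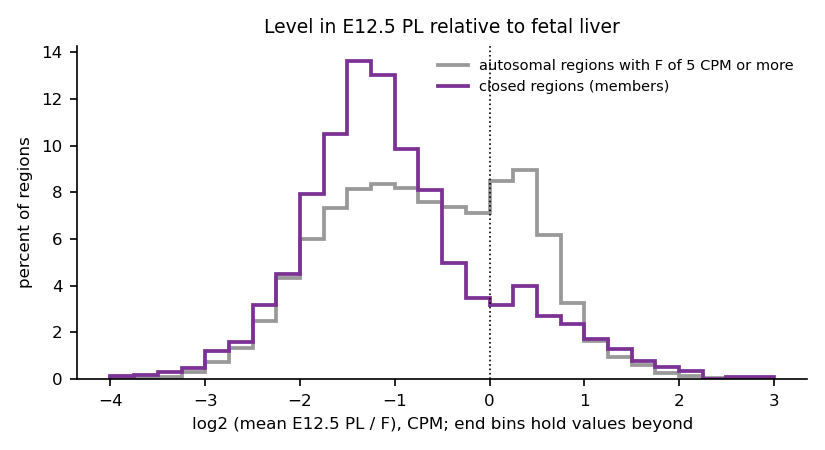
Distribution of log2 of the mean level in E12.5 PL over F (horizontal axis; percent of regions on the vertical axis) for the 2822 closed regions and for autosomal regions with F of 5 CPM or more. The closed regions peak below 0, with a median ratio of 0.454 and a tail to the right that reaches 7.43.

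At the top of that order were regions that fetal liver opened only weakly. The region 33743 bp from Rassf3 had 36.7, 47.6 and 33.1 CPM in E12.5 PL and 2.5 to 6.65 CPM in liver, a ratio of 7.43. Those 15088 bp from Litaf and inside App, the amyloid precursor gene, had ratios of 6.80 and 6.54, and the ones near Tex44 and inside Mthfd1l 5.80 and 4.76. None of these 5 regions held a peak in a liver list. At the bottom, with ratios of 0.05 to 0.08, were a region 10000 bp from Slc32a1, with 0, 0.592 and 0.860 CPM in E12.5 PL, and 4 regions without a named gene.

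E12.5 PL was compared with 3w and 4w marrow, since none of these 8 libraries chose the members. By edgeR's quasi-likelihood test (Benjamini-Hochberg adjusted p under 0.05 over all 99005 regions tested), 893 of the 2822 members were higher in E12.5 PL (31.6%) and 115 lower (4.08%). Over all regions 30.1% were higher and 26.5% lower, so the share of higher calls is near the background. Among autosomal regions with F of 5 CPM or more, 19.1% were higher and 35.6% lower. The members were required to be low in the neighbouring marrow ages, which bears on the small share of lower calls, and nothing is read from it. The median log2 fold change was 0.45 in members and -0.04 over all regions. With DESeq2 size factors in place of TMM, the members gave 1238 higher and 48 lower, the median of all regions moved to 0.25, and the share of higher calls among all calls went from 53.2% to 65.4%. Marker sums of other cell types in E12.5 PL are given above, and their part in these calls was not tested.

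Of the 8 higher members with the smallest p, 2 covered the start of an imprinted gene. At Mcts2, a retrogene inside another gene that is expressed from the paternal copy, E12.5 PL had 36.7, 30.2 and 26.9 CPM and the 5 libraries of 3w and 4w marrow 0.684 to 3.26 CPM, a log2 fold change of 4.46 (SE 0.29, adjusted p = 4.9e-19, edgeR). Liver was between, at 10.3 to 17.1 CPM, and perinatal and 1w marrow at 2.11 to 7.04 CPM. At Zim1, a zinc finger gene of the imprinted Peg3 domain, E12.5 PL had 39.6, 30.6 and 31.2 CPM against 1.05 to 3.26 CPM in 3w and 4w marrow (log2 fold change 4.17, SE 0.30, adjusted p = 1.1e-17, edgeR). Its liver libraries spread from 8.59 to 43.6 CPM and overlapped those of perinatal and 1w marrow, at 5.61 to 17.4 CPM. Inside Fscn1, which encodes an actin-bundling protein, E12.5 PL had 53.8, 31.8 and 49.2 CPM and liver 8.31 to 16.1 CPM (log2 fold change against 3w and 4w marrow 3.40, SE 0.24, adjusted p = 5.7e-18, edgeR). The fetal-type Igf2bp1 region at 96006913 was higher by 2.83 (SE 0.31, adjusted p = 2.2e-11) and the Hoxa3 region by 4.31 (SE 0.42, adjusted p = 6.6e-13), both log2 fold changes from edgeR.

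Members lower in E12.5 PL than in 3w and 4w marrow included regions near Tekt3, Unc5a and Slc32a1 and inside Pde4d, Golga3, Tenm4 and Zfp985. Near Tekt3, a tektin of cilia, E12.5 PL had 0.445, 3.55 and 1.29 CPM, liver 8.89 to 21.5 CPM and 3w and 4w marrow 3.10 to 9.47 CPM (log2 fold change -1.79, SE 0.40, adjusted p = 0.00013, edgeR). One E12.5 PL library was above the lowest of the marrow ones. Inside Pde4d, a cAMP phosphodiesterase gene, E12.5 PL had 2.67, 2.76 and 2.15 CPM, all below the 7.44 to 10.7 CPM of 3w and 4w marrow (log2 fold change -1.76, SE 0.35, adjusted p = 1.9e-05, edgeR). The Runx1 region outside the span was lower by the same test (log2 fold change -0.98, SE 0.36, adjusted p = 0.016, edgeR).

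**Figure D5:**
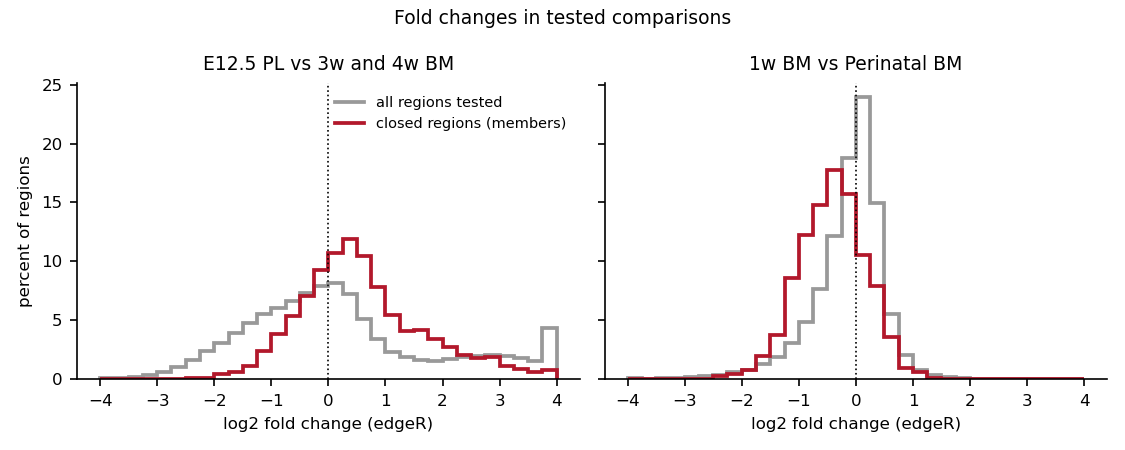
Distribution of edgeR log2 fold changes (horizontal axes; percent of regions, vertical axis) for closed regions and for all regions tested, in E12.5 PL against 3w and 4w BM (left) and in 1w BM against Perinatal BM (right). The members' median is 0.45 on the left and -0.39 on the right, against -0.04 and -0.02 over all regions; the libraries on the right helped choose the members.

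Perinatal BM and 1w BM together make up N, which chose the members, so their step is given as a description and nothing is read from the members' share. From Perinatal BM to 1w BM edgeR's adjusted p under 0.05 called 37 members lower (1.31%) and none higher, and 0.148% of all regions lower and 0.0323% higher. At an unadjusted p under 0.05 there were 571 members (20.2%, against 8.96% over all regions), and DESeq2 called 11 lower. The members' median log2 fold change was -0.39, against -0.02 over all regions. Without 1w BM 1 only 1 member passed and without Perinatal BM 1 only 2, and of the 37, 17 had F under 50 CPM. Inside Dpp10, a dipeptidyl peptidase-like gene of neurons, Perinatal BM had 10.03, 7.858 and 6.522 CPM and 1w BM 1.405, 0.703 and 1.77 CPM, with no overlap. Its level was 9.17 to 26.6 CPM in liver and 0 to 1.24 CPM in 3w and 4w marrow. The region on chromosome 12 at 21784312, without a named gene, had 15.64, 20.1 and 8.348 CPM and then 6.673, 2.812 and 4.819 CPM, also without overlap.

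E12.5 FL and E16.5 FL together make up F, so their difference is likewise a description. No member was called between them at an adjusted p under 0.05, with edgeR or with DESeq2, and over all regions edgeR called 0.00101% higher and none lower, so a count of 0 was near to given. Of the members, 220 had an unadjusted p under 0.05 (7.80%, against 7.26% over all regions). The members' median log2 fold change was -0.07. A p that misses the threshold does not show that the 2 ages are alike.

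Of the 2822 members, 2348 (83.2%) had a counterpart in the separate table of cultured cells, by an overlap of at least 50% of both regions, and 2347 passed its filter on low counts. In that table the median member had 4.12 to 4.39 CPM in SHI and 4.06 to 4.77 CPM in co-SHI, against 7.85 to 8.49 CPM for the matched regions with F of 5 CPM or more. The E12.5 FL libraries are counted in that table too, more deeply, and there the matched members had medians of 4.85, 4.94 and 4.94 CPM, 0.542 to 0.552 of the median over those matched regions. In the developmental table the same members in the same libraries had 7.06, 7.84 and 7.06 CPM, 0.743 to 0.789 of that median. The members thus stood lower relative to those regions in the deeper counts. The developmental values are part of F and helped choose the members, so nothing is read from this drop. Marrow is not in the cultured table, so F over N was not measured there. No SHI or co-SHI library lay outside 0.485 to 0.586 by that ratio. Between co-SHI and SHI 30 members were higher (1.28%; 0.228% over all regions) and 46 lower (1.96%; 0.332%), by edgeR with adjusted p under 0.05, and DESeq2 gave 18 and 4. The counts hang on single libraries: without SHI 2 none was lower and 7 were higher, without co-SHI 3 117 were higher, without co-SHI 2 only 2 were, and without SHI 3 104 were lower. The lower calls were mostly of regions with high counts, with 13 of 46 under F of 50 CPM. At chr9:35305123-35305628 near Rpusd4, SHI had 705, 1204 and 231.7 CPM and co-SHI 264.8, 333.4 and 260.4 CPM (log2 fold change -1.32, SE 0.23, adjusted p = 0.0028, edgeR), and inside Muc3, a mucin gene, SHI had 13.73, 32.35 and 8.236 CPM and co-SHI 5.73, 6.172 and 6.582 CPM. In both, SHI 2 was the highest library, and near Rpusd4 SHI 3 was below every co-SHI library.

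Among the higher calls, Zfp978 and Nalcn had groups that did not overlap. Inside Zfp978 (chr4:147275073-147276224), in a zinc finger cluster that may hold similar copies, SHI had 11.5, 11.58 and 9.266 CPM and co-SHI 21.15, 22.55 and 17.65 CPM (log2 fold change 0.93, SE 0.15, adjusted p = 0.0012, edgeR). At the end of Nalcn, a sodium leak channel gene, SHI had 4.72, 5.857 and 4.118 CPM and co-SHI 11.51, 10.7 and 7.983 CPM (log2 fold change 1.06, SE 0.20, adjusted p = 0.0087, edgeR). The Igf2bp1 region at 96006913 did not pass, with 13.3, 13.05 and 14.93 CPM in SHI and 14.67, 16.57 and 14.43 CPM in co-SHI (log2 fold change 0.14, SE 0.15, adjusted p = 0.77, edgeR). Mcts2, Hoxa3 and Lpar5 did not pass either, with log2 fold changes of 0.18, 0.08 and -0.16 (adjusted p = 0.66, 0.91 and 0.72, edgeR).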

How the data were processed

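The deposited tables hold raw counts per region for the developmental and for the cultured libraries. Per the submitters' processing notes, the authors used Trim Galore, MACS2, deepTools, DiffBind and HOMER with build mm10; the aligner, the Tn5 shift, duplicate and multi-mapping reads and the merging of regions are not given in the sources used here. The deposited peak lists, 1 per library, give a score, a fold enrichment (a ratio to background) and −log10 p and q values; only peak positions were used. Totals were 2845113 to 10167340 in the developmental and 7512258 to 20092146 in the SHI and co-SHI libraries.

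CPM, the rule, the nearest named RefSeq genes (GRCm38.p6, 20359 protein-coding and lncRNA genes without predicted names) and peak overlaps of at least 1 base were computed in Python 3.11.15 with pandas 2.3.3. Counts were tested with edgeR 4.0.16 (filterByExpr, TMM, quasi-likelihood) in R 4.3.3, over all regions and with all 26 developmental libraries sharing 1 estimate of spread; DESeq2 1.42.0 was an alternative. The code was tested on simulated data. The members and the gene lists were chosen with earlier results of these data known. Named regions are the 20 of highest (F + 0.5)/(N + 0.5), the 5 of highest F, genes with 3 or more members, up to 4 per list, up to 8 called per test and direction, the 5 highest and 5 lowest in E12.5 PL over F, and 3 on either side of the threshold. Named members on chromosome 18 are not described here, and the cultured table's columns of E12.5 FL, counted more deeply there, entered no test. Some genes of the lists count in the totals but are not reported here.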

Additional observations from a re-analysis of the deposited data

How the results depend on the processing

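The number of closed regions depended on scaling and thresholds: 1176 with TMM-scaled CPM, 633 with F of at least 10 CPM, 429 with F at least 3 times N, and 2553 to 3285 when each library in turn was left out. In E12.5 PL against 3w and 4w marrow the lower members were 48 with DESeq2 size factors and 47 with DESeq2; leaving out a library gave 770 to 962 higher and 83 to 112 lower. In E16.5 against E12.5 liver, 1 member was higher when only the compared groups were fitted. From perinatal to 1w marrow the lower members numbered 70 with a replicate block, 57 with the compared groups only, 11 with DESeq2 and 17 without members of F of 50 CPM or more, and 1 to 80 when a library was left out. Between co-SHI and SHI, DESeq2 gave 18 higher and 4 lower, 13 were lower without members of F of 50 CPM or more (chosen after seeing the data), and leaving out a library gave 2 to 117 higher and 0 to 104 lower. The main tests did not pair libraries by number. Correlations of deviations were -0.057 to 0.146 between same-numbered libraries and -0.079 to 0.076 between differently numbered ones. With so few libraries, these values cannot show whether the numbers pair samples. The replicate block gave 915 higher and 119 lower in E12.5 PL against marrow, 0 in E16.5 against E12.5 liver, and 32 higher and 67 lower in co-SHI against SHI. Among values for single named regions under these alternatives, 434 kept their side of the threshold, 62 lost the call and none changed direction. The cause of these shifts was not tested. At 2 to 7 CPM in libraries of 2845113 to 10167340 counts, single faint regions have wide counting error.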
